A study of Mus musculus with 12 samples.

Results

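The transcription factor NRF2 (gene Nfe2l2), its inhibitor KEAP1, 7 of the antioxidant and detoxifying genes that NRF2 drives (Hmox1, Nqo1, Gclc, Gclm, Slc7a11, Txnrd1 and Srxn1) and the autophagy receptor p62 (gene Sqstm1) were followed by RNA-seq in mouse dendritic cells with and without knockdown of Ppargc1b. The 10 genes were taken by symbol from a table of read counts for 55471 genes, and all 10 were among the 18228 genes with enough counts to test. The cells were bone marrow-derived dendritic cells of female C57BL/6 mice, grown with GM-CSF and transduced with a retrovirus that carried a short hairpin RNA and a human CD8 reporter, on which transduced cells were sorted. The hairpin was directed against firefly luciferase (shControl) or against Ppargc1b (shPpargc1b), so that every group, controls included, carried the vector and the human CD8 protein. Cells of either genotype were left unstimulated or were given IFN-β for 6 h, which gave 4 groups of 3 libraries each: unstimulated shControl, unstimulated shPpargc1b, shControl with IFN-β and shPpargc1b with IFN-β. The study names a default hairpin against Ppargc1b, but the sources used here name none for the sequenced libraries, nor do they say whether replicates came from separate animals or cultures. The knockdown left part of the Ppargc1b transcript, and the p-values measure only the spread between these libraries.

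In resting cells KEAP1 binds NRF2 and presents it to a ubiquitin ligase, so that NRF2 is made and degraded continuously. Electrophiles and oxidants modify cysteines of KEAP1, NRF2 escapes, and with a small MAF protein it binds antioxidant response elements near genes for glutathione synthesis, thioredoxin recycling, quinone reduction and heme breakdown. p62, which carries ubiquitinated cargo to autophagosomes, can also bind KEAP1 and so free NRF2, and its gene is itself an NRF2 target. In dendritic cells and macrophages the pathway is known to restrain inflammatory cytokine expression. The transcript level of Nfe2l2 does not measure the NRF2 protein, which is set largely by its degradation.

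The windows of 250 bases before to 50 bases after the start of transcription were taken from RefSeq on the GRCm38.p6 build. They were searched on both strands for the antioxidant response element core TGACNNNGC and for the form TGANTCAGC, bound by NRF2 with a small MAF protein. The AP-1 site TGACTCA, whose letters overlap TGANTCAGC, was searched for as well. Windows were found for 8 of the 10 genes, all but Hmox1 and Gclc, and numbered 10, since Txnrd1 has 3 starts. The element core was present in windows of 4 genes: Nfe2l2, Gclm, Txnrd1 (its second start) and Srxn1. It was also present in 12.4% of the 32851 windows of all genes. The form TGANTCAGC occurred in the window of Srxn1 alone among these genes, against 1.19% of all windows. AP-1 sites were likewise found in the window of Srxn1 alone, against 5.2% of all windows. The 250 bases before the start are shown for the 4 genes with a match, because the knockdown moved them unequally: Nfe2l2, Gclm and Txnrd1 rose in unstimulated cells and Srxn1 did not pass the test. Capitals mark the matches, which are descriptions of these letters and not bound sites.
Nfe2l2 (minus strand, chr2:75704664-75704913): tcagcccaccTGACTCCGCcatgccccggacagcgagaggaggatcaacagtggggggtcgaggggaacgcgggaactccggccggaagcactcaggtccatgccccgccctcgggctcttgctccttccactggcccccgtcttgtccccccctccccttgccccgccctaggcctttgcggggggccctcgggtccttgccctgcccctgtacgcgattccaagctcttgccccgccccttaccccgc
Gclm (plus strand, chr3:122245307-122245556): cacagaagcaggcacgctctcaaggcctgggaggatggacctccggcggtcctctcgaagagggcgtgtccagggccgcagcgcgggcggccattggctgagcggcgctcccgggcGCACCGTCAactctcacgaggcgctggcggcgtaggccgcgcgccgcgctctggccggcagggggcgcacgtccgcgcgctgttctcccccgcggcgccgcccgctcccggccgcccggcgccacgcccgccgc
Txnrd1, second start (plus strand, chr10:82858956-82859205): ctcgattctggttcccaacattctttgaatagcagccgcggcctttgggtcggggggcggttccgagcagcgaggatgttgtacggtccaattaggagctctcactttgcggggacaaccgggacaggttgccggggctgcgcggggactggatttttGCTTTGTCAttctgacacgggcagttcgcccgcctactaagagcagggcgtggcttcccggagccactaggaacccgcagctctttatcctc
Srxn1 (plus strand, chr2:152105274-152105523): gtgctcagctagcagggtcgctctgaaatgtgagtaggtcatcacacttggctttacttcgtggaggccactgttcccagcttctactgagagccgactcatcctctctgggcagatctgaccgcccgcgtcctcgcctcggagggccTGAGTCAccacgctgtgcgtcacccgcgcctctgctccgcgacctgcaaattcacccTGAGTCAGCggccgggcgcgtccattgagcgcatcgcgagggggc
Counted from the start of transcription, the Nfe2l2 match TGACTCCGC lay at bases -240 to -232. On the opposite strand, Gclm held TGACGGTGC at -134 to -126 and Txnrd1 TGACAAAGC at -92 to -84. In Srxn1 the capitals mark 2 AP-1 sites, at -102 to -96 and -45 to -39. The second is part of the TGANTCAGC match, TGAGTCAGC, at -45 to -37. The Srxn1 core match TGACCTAGC fell after the start, at bases 29 to 37, on the opposite strand.

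The 12 libraries held 49919648 to 77726101 counted reads each. Ppargc1b, the targeted gene, stood at 34.5 ± 1.94 CPM (counts per 1000000 reads, scaled by edgeR's TMM factors; mean ± SD, n = 3) in unstimulated shControl and 19.4 ± 0.851 in unstimulated shPpargc1b libraries, and at 27.8 ± 3.93 and 18.7 ± 2.83 with IFN-β. It fell in both states (log2 fold change -0.83 and -0.57, edgeR adjusted p = 3.25e-05 and 9.45e-04). Markers of several cell types were summed in each library. The summed CPM of 10 dendritic markers ran from 2716 to 3154 in unstimulated shControl and from 3322 to 3679 in unstimulated shPpargc1b libraries, that of 11 macrophage markers from 2859 to 3035 and from 2605 to 2681, that of 10 neutrophil markers from 42.7 to 97.4 and from 91.9 to 162, and that of 9 mast cell or basophil markers from 9.20 to 17.5 and from 22.8 to 26.9. With IFN-β the same 4 sums ran from 2907 to 3439 and from 3609 to 3900, from 3629 to 3891 and from 3160 to 3345, from 40.1 to 102 and from 88.7 to 166, and from 12.3 to 19.2 and from 18.3 to 26.7. The neutrophil sums of the genotypes overlapped in both states and the mast cell or basophil sums with IFN-β, while the other sums of these 4 lists did not overlap. Sums of erythroid and lymphocyte markers stayed at or below 0.360 and 1.12 CPM. Among the dendritic markers Itgax (CD11c) was at 900.1 CPM or more in every library, whereas Cd209a was at or near 0. Of the 11 macrophage markers 0 were called higher and 3 lower (27.3%) under knockdown without IFN-β, against 11.1% of all genes lower. Mrc1 ran from 268 to 334 CPM in unstimulated shControl and from 98.6 to 121 in unstimulated shPpargc1b libraries. Csf1r overlapped between these groups, at 1214 to 1247 and 1194 to 1223 CPM. The part of these markers in the results below was not tested, and in bulk RNA fewer cells of a type and less RNA per cell cannot be told apart.

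Per kilobase of exon, Hmox1 was the highest of the 10 genes in every group and Keap1 or Gclc the lowest. In unstimulated shControl libraries the mean level per kilobase was 576.9 CPM for Hmox1, which degrades heme, followed by 182 for Nfe2l2, 86.8 for Sqstm1, 76.1 for Slc7a11, 63.6 for Srxn1, 48.0 for Txnrd1, 32.5 for Gclm, 24.9 for Nqo1, 15.2 for Gclc and 8.56 for Keap1. No neighbours in that order overlapped in their 3 libraries. In unstimulated shPpargc1b libraries Slc7a11, at 116 CPM per kilobase, stood above Sqstm1, at 104, and the libraries of Srxn1 and Txnrd1 overlapped. In shControl libraries with IFN-β Keap1, at 17.3, stood above Gclc, at 12.2, and Slc7a11 overlapped Srxn1. In shPpargc1b libraries with IFN-β the order of Srxn1 and Txnrd1, and that of Gclc and Keap1, could not be told from their spread.

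**Figure D1:**
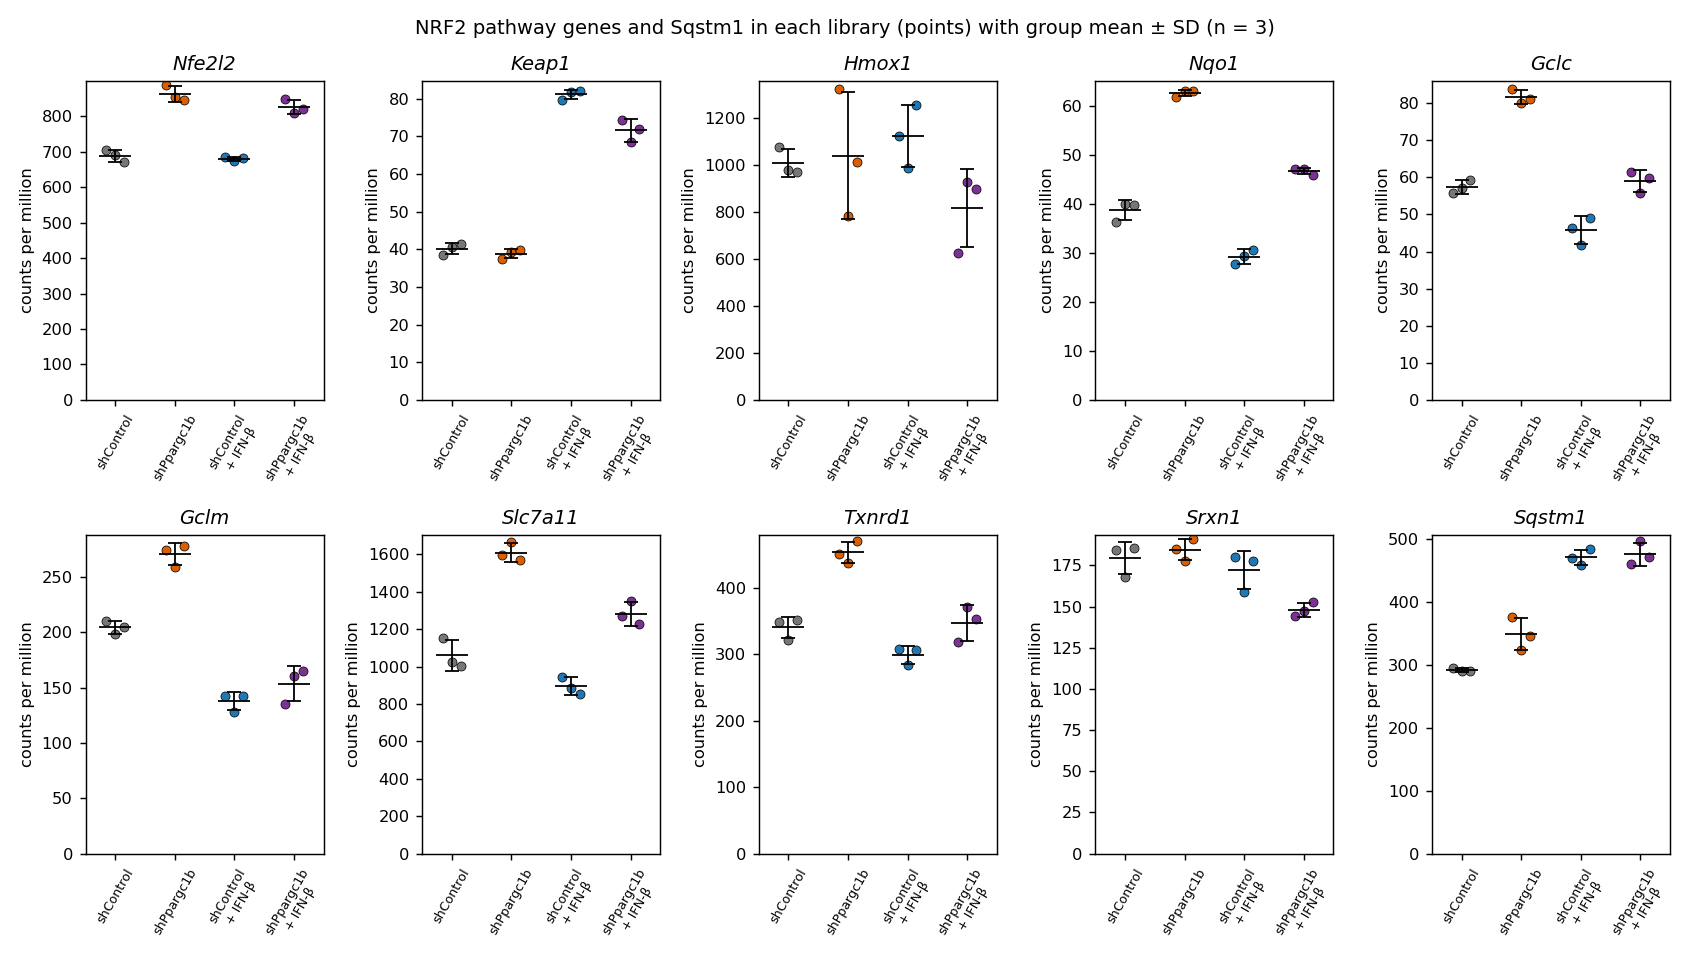
CPM (TMM-scaled, linear axis from 0) of the 10 genes in each of the 12 libraries; points are libraries, the wide bar is the group mean and the error bar the SD (n = 3). Nqo1, Slc7a11, Gclc and Nfe2l2 separate by genotype with and without IFN-β, Keap1 and Sqstm1 separate by IFN-β, and Hmox1 spreads from 785 to 1324 CPM within the unstimulated shPpargc1b libraries alone.

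Knockdown of Ppargc1b in unstimulated cells raised 7 of the 10 genes (Nfe2l2, Nqo1, Gclc, Gclm, Slc7a11, Txnrd1 and Sqstm1) and lowered 0, while Keap1, Hmox1 and Srxn1 did not pass the test. Over all genes tested, 23.6% passed at an adjusted p of 0.05, 12.4% as higher and 11.1% as lower. The median log2 fold change of the 10 genes was 0.36, against 0.00 over all genes. At an unadjusted p under 0.05, 0 of the 10 genes were lower, and DESeq2 also called 0 lower. With IFN-β the knockdown raised 5 genes (Nfe2l2, Nqo1, Gclc, Slc7a11 and Txnrd1) and lowered 3 (Keap1, Hmox1 and Srxn1), with Gclm and Sqstm1 not past the threshold and a median of 0.19. Among all genes 24.2% passed in that comparison, 11.5% as higher and 12.7% as lower. The shControl and shPpargc1b libraries did not overlap for 7 of the 10 genes without IFN-β and for 8 with it, against 36.8% and 38.7% of all genes. In every such case the exact two-sided permutation test gave p = 0.1, the smallest that 3 against 3 libraries allow.

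Nfe2l2, which encodes NRF2 itself, was read at 706, 690 and 672 CPM in the unstimulated shControl libraries and at 889, 856 and 847 CPM in the unstimulated shPpargc1b libraries. With IFN-β the shControl libraries gave 685, 674 and 683 CPM and the shPpargc1b libraries 848, 811 and 822 CPM. All 6 knockdown libraries lay above all 6 shControl libraries. The log2 fold change was 0.33 ± 0.037 (SE) without IFN-β (edgeR adjusted p = 1.19e-05) and 0.28 ± 0.037 with it (edgeR adjusted p = 5.06e-05). Keap1, whose product targets NRF2 for degradation, was at 38.6, 40.5 and 41.4 CPM in unstimulated shControl and at 37.4, 39.2 and 39.8 CPM in unstimulated shPpargc1b libraries. These overlapped, and the 95% interval of the log2 fold change ran from -0.14 to 0.05 (edgeR adjusted p = 0.504). With IFN-β Keap1 gave 79.7, 81.8 and 82.0 CPM in shControl and 74.5, 68.4 and 71.9 CPM in shPpargc1b libraries. It was lower in 3 of 3 knockdown libraries, by a log2 fold change of -0.18 ± 0.044 (edgeR adjusted p = 0.00676).

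The count of Nfe2l2 over that of Keap1 in the same library, which does not depend on library scaling, was 17.2 ± 1.04 (mean ± SD, n = 3) in unstimulated shControl and 22.3 ± 1.3 in unstimulated shPpargc1b libraries. With IFN-β it was 8.38 ± 0.182 in shControl and 11.6 ± 0.253 in shPpargc1b libraries. The ratio was thus higher under knockdown and lower under IFN-β, with no overlap of libraries between any groups compared (exact permutation p = 0.1 for each). Keap1 shares 510 exonic bases, 10.9% of its exons, with the antisense gene Gm16754, and the sources used here do not say whether reads were counted by strand, so reads from the overlap cannot be assigned to one strand. Gm16754 held 5026 counts in all libraries together against 40038 for Keap1. Its change with IFN-β in shControl cells was 0.11 on the log2 scale (edgeR adjusted p = 0.622), and its changes under knockdown were -0.43 without IFN-β (edgeR adjusted p = 0.0706) and -0.53 with it (edgeR adjusted p = 0.0274).

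**Figure D2:**
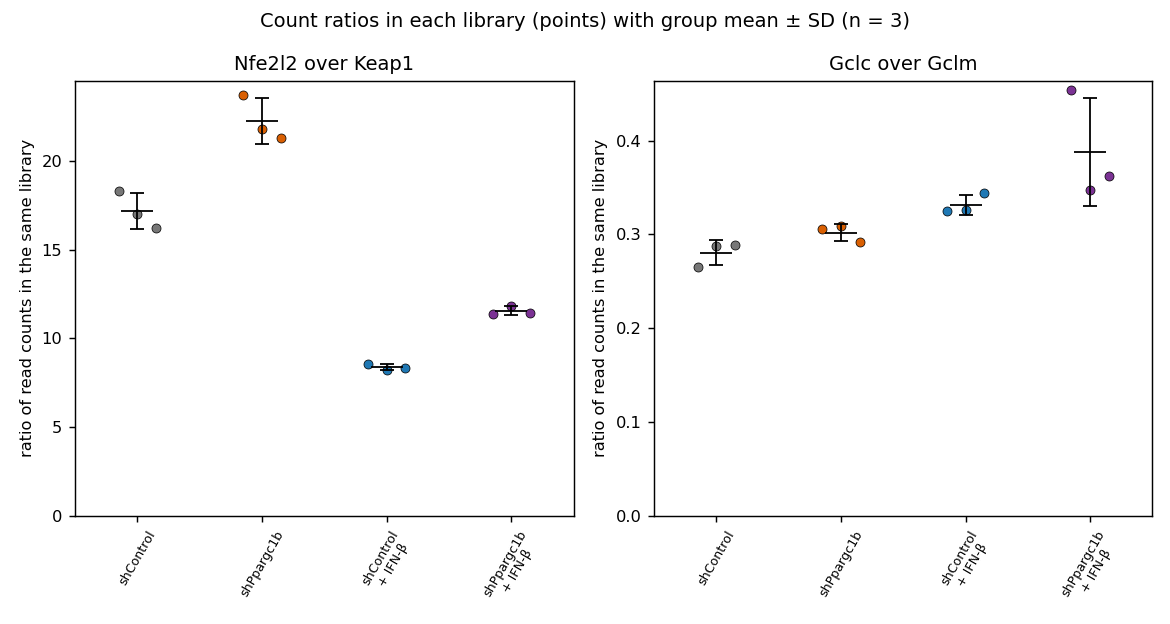
Read count of Nfe2l2 divided by that of Keap1 (left) and of Gclc divided by that of Gclm (right) in each library, on linear axes from 0; points are libraries and bars show the mean ± SD (n = 3). The Nfe2l2 to Keap1 ratio runs from 8.23 in a shControl library with IFN-β to 23.8 in an unstimulated shPpargc1b library.

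The genes of glutathione supply rose together in unstimulated knockdown cells. Slc7a11, the subunit of system xc- that imports cystine, was read at 1152, 1024 and 1002 CPM in unstimulated shControl and at 1595, 1664 and 1567 CPM in unstimulated shPpargc1b libraries. With IFN-β it was at 946, 886 and 855 CPM in shControl and at 1268, 1349 and 1225 CPM in shPpargc1b libraries. Each knockdown library exceeded every shControl library of its state, with log2 fold changes of 0.60 ± 0.057 (edgeR adjusted p = 2.37e-06) and 0.52 ± 0.057 (edgeR adjusted p = 1.12e-05). Gclc, the catalytic subunit of glutamate-cysteine ligase, was at 55.8, 57.1 and 59.3 CPM in unstimulated shControl and at 83.9, 80.0 and 81.1 CPM in unstimulated shPpargc1b libraries. With IFN-β Gclc stood at 46.4, 41.8 and 49.1 CPM in shControl and at 61.5, 55.7 and 59.8 CPM in shPpargc1b libraries. Its groups did not overlap in either state, and its log2 fold changes were 0.51 ± 0.056 without (edgeR adjusted p = 8.33e-06) and 0.37 ± 0.056 with IFN-β (edgeR adjusted p = 2.12e-04).

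Gclm, the modifier subunit of the same ligase, was at 210.0, 198.7 and 205 CPM in unstimulated shControl and at 274, 259 and 278 CPM in unstimulated shPpargc1b libraries, with no overlap. It rose by a log2 fold change of 0.40 ± 0.064 (edgeR adjusted p = 2.57e-04). With IFN-β the shControl libraries gave 143, 128 and 143 CPM and the shPpargc1b libraries 135, 160 and 165 CPM. The first of these knockdown libraries lay among the controls, and the 95% interval of the log2 fold change ran from 0.02 to 0.29 (edgeR adjusted p = 0.10). Without that library, shPpargc1b with IFN-β replicate 1, the log2 fold change was 0.23 (edgeR adjusted p = 0.00814). Gclm shares 296 exonic bases with Gm17494 on the opposite strand and 244 with the pseudogene Gm6061 on the same strand, which held 320 and 225 counts in all libraries against 137085 for Gclm. The Gclc to Gclm count ratio was 0.281 ± 0.0131 in unstimulated shControl, 0.302 ± 0.00914 in unstimulated shPpargc1b, 0.332 ± 0.0108 in shControl with IFN-β and 0.388 ± 0.0579 in shPpargc1b libraries with IFN-β (mean ± SD, n = 3). The groups of each comparison did not overlap, and the ratio was higher under knockdown and under IFN-β alike (exact permutation p = 0.1 for each).

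Nqo1, a quinone reductase widely used as a readout of NRF2, had the largest rise of the 10 genes in both states. It was read at 36.4, 40.0 and 39.7 CPM in unstimulated shControl and at 61.9, 63.1 and 63.0 CPM in unstimulated shPpargc1b libraries. With IFN-β it was at 27.7, 29.4 and 30.6 CPM in shControl and at 47.2, 47.0 and 46.0 CPM in shPpargc1b libraries. The knockdown libraries with IFN-β still exceeded every unstimulated shControl library. The log2 fold change was 0.69 ± 0.048 without IFN-β (edgeR adjusted p = 1.3e-07) and 0.67 ± 0.049 with it (edgeR adjusted p = 2.79e-07), which is a 1.62-fold and a 1.60-fold difference between the group means.

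Of the thioredoxin genes, Txnrd1 rose in both states, whereas Srxn1 passed the test only with IFN-β, as lower. Txnrd1, the cytosolic thioredoxin reductase, was at 349, 322 and 351 CPM in unstimulated shControl and at 451, 438 and 470 CPM in unstimulated shPpargc1b libraries, a log2 fold change of 0.41 ± 0.056 (edgeR adjusted p = 6.39e-05). With IFN-β it was at 307, 284 and 307 CPM in shControl and at 318, 371 and 353 CPM in shPpargc1b libraries, a log2 fold change of 0.22 ± 0.056 (edgeR adjusted p = 0.0110). The libraries did not overlap in either state, but with IFN-β the call was lost without shControl with IFN-β replicate 2 (edgeR adjusted p = 0.0783), shPpargc1b with IFN-β replicate 2 (0.0701) or replicate 3 (0.0540). Srxn1, sulfiredoxin, which reactivates overoxidized peroxiredoxins, was at 184, 168 and 186 CPM in unstimulated shControl and at 185, 178 and 191 CPM in unstimulated shPpargc1b libraries. The groups overlapped, and the 95% interval of the log2 fold change was -0.07 to 0.15 (edgeR adjusted p = 0.638). With IFN-β Srxn1 was at 180, 159 and 178 CPM in shControl and at 144, 147 and 153 CPM in shPpargc1b libraries, lower in 3 of 3 knockdown libraries by a log2 fold change of -0.22 ± 0.053 (edgeR adjusted p = 0.00678).

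Hmox1 had the widest spread between replicates of the 10 genes in 3 of the 4 groups (coefficient of variation 26.0% in unstimulated shPpargc1b libraries). It was read at 1078, 980 and 972 CPM in unstimulated shControl and at 1324, 785 and 1013 CPM in unstimulated shPpargc1b libraries, so that the knockdown libraries spanned the controls (log2 fold change 0.04 ± 0.16, 95% interval -0.30 to 0.38, edgeR adjusted p = 0.892). With IFN-β the shControl libraries gave 1125, 990 and 1258 CPM and the shPpargc1b libraries 626, 930 and 899 CPM. All 3 knockdown libraries with IFN-β lay below the controls, and the log2 fold change was -0.46 ± 0.16 (edgeR adjusted p = 0.0499). That call rested at the threshold: it was lost without shPpargc1b with IFN-β replicate 1 (log2 fold change -0.31, edgeR adjusted p = 0.185), shControl with IFN-β replicate 3 (0.170) or replicate 1 (0.0950), and shPpargc1b with IFN-β replicate 3 (0.0513). It was also lost without a library outside the comparison: unstimulated shControl replicate 1 (edgeR adjusted p = 0.0701), 2 (0.0710) or 3 (0.0729), or unstimulated shPpargc1b replicate 3 (0.0709). DESeq2 gave an adjusted p of 0.0874 and scaling by library totals an edgeR adjusted p of 0.0617.

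Sqstm1, the gene of p62, was at 295, 289 and 289 CPM in unstimulated shControl and at 376, 324 and 346 CPM in unstimulated shPpargc1b libraries. The knockdown libraries spread more widely but did not overlap the controls, and the log2 fold change was 0.26 ± 0.050 (edgeR adjusted p = 0.00122). With IFN-β Sqstm1 was at 469, 458 and 483 CPM in shControl and at 459, 496 and 470 CPM in shPpargc1b libraries. The libraries of the 2 genotypes overlapped there, and the 95% interval of the log2 fold change ran from -0.09 to 0.12 (edgeR adjusted p = 0.869).

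**Figure D3:**
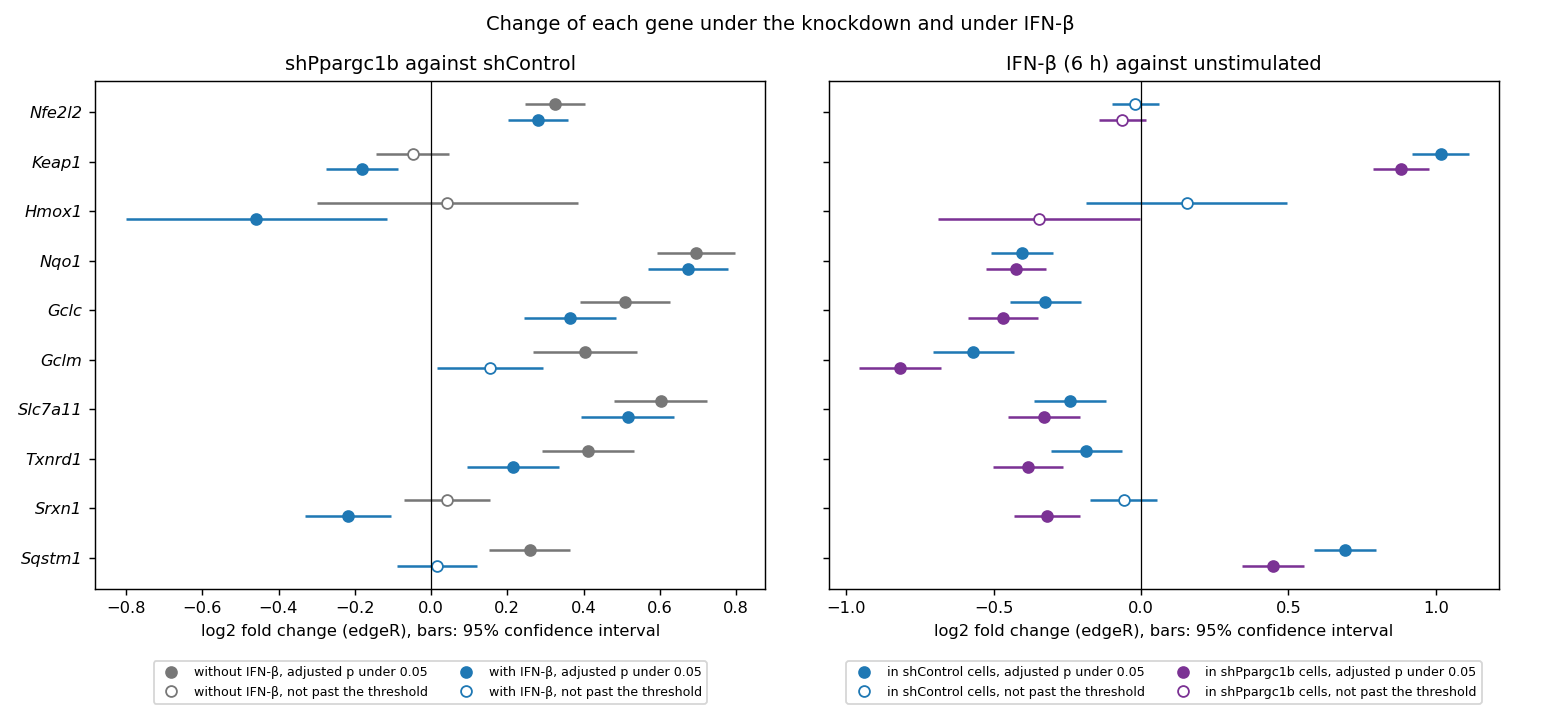
Log2 fold changes (edgeR) of the 10 genes with 95% confidence intervals: shPpargc1b against shControl without (grey) and with IFN-β (blue) on the left, and IFN-β against unstimulated in shControl (blue) and shPpargc1b cells (purple) on the right; filled points passed an adjusted p of 0.05 and open points did not. Nqo1 and Slc7a11 lie furthest to the right on the left panel, at 0.69 and 0.60 without IFN-β, and Keap1 and Sqstm1 are the 2 genes with filled points right of 0 on the right panel.

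IFN-β raised Keap1 and Sqstm1 and lowered most of the enzyme and transporter genes. In shControl cells 2 of the 10 genes rose, 5 fell (Nqo1, Gclc, Gclm, Slc7a11 and Txnrd1) and 3 did not pass the test, with a median log2 fold change of -0.12. In shPpargc1b cells the same 2 genes rose, 6 fell (those 5 and Srxn1) and 2 did not pass, with a median of -0.34. Among all genes 48.2% passed in shControl cells (23.7% higher, 24.6% lower) and 42.6% in shPpargc1b cells (21.4% higher, 21.2% lower), so the number of the 10 genes that passed stands against a high background. Libraries with and without IFN-β did not overlap for 7 genes in shControl and 8 in shPpargc1b cells, against 56.7% and 50.1% of all genes. These comparisons share their unstimulated libraries with the knockdown comparison without IFN-β. When libraries were scaled by their totals alone, the median log2 fold change of all genes moved from -0.03 to -0.27 in shControl and from -0.02 to -0.22 in shPpargc1b cells, and the share of higher genes among those called moved from 49.0% to 23.9% and from 50.2% to 23.7%.

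Keap1 rose with IFN-β from 40.2 ± 1.43 to 81.2 ± 1.26 CPM in shControl (mean ± SD, n = 3) and from 38.8 ± 1.23 to 71.6 ± 3.02 CPM in shPpargc1b cells. Its log2 fold changes were 1.02 ± 0.045 (edgeR adjusted p = 2.92e-11) and 0.88 ± 0.045 (edgeR adjusted p = 2.26e-10), and 0.78 and 0.68 when scaled by library totals. Sqstm1 rose from 291 ± 3.08 to 470.0 ± 12.3 CPM in shControl cells, a log2 fold change of 0.69 ± 0.050 (edgeR adjusted p = 1.24e-08). In shPpargc1b cells it rose from 348 ± 26.1 to 475 ± 18.7 CPM, a log2 fold change of 0.45 ± 0.050 (edgeR adjusted p = 2.57e-06). The 2 genotypes thus started apart and ended at overlapping levels. Over 18 alternative ways of processing, the log2 fold change of Sqstm1 went as low as 0.45 in shControl and 0.24 in shPpargc1b cells, with the calls kept. Sqstm1 shares 580 exonic bases, 17.3% of its exons, with Mrnip on the opposite strand, which held 712 counts in all libraries against 275806 and did not rise with IFN-β (log2 fold change -0.44, edgeR adjusted p = 0.0503, in shControl cells). Nfe2l2 did not pass the test in either genotype (log2 fold change -0.02, edgeR adjusted p = 0.703, and -0.06, 0.191), but scaled by library totals it fell by 0.26 and 0.27 on the log2 scale, close to the shift of all genes.

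Gclm fell most with IFN-β, from 205 ± 5.66 to 138 ± 8.46 CPM in shControl and from 271 ± 10.0 to 154 ± 16.1 CPM in shPpargc1b cells. Its log2 fold changes were -0.57 ± 0.065 (edgeR adjusted p = 2.57e-06) and -0.82 ± 0.065 (edgeR adjusted p = 5.37e-08). Nqo1 fell by 0.40 in shControl (edgeR adjusted p = 5.48e-06) and by 0.42 in shPpargc1b cells (edgeR adjusted p = 3.24e-06) on the log2 scale, Gclc by 0.33 (1.77e-04) and 0.47 (5.26e-06), Slc7a11 by 0.24 (0.00235) and 0.33 (2.26e-04), and Txnrd1 by 0.19 (0.0126) and 0.38 (4.79e-05). Each of these falls exceeded the spread of its replicates, but for Txnrd1 in shControl cells the call was lost without shControl with IFN-β replicate 2 (edgeR adjusted p = 0.110). The size of the falls depended on processing. In shControl cells 18 alternatives gave -0.81 to -0.50 for Gclm, -0.64 to -0.35 for Nqo1 and -0.57 to -0.24 for Gclc. They gave -0.48 to -0.19 for Slc7a11 and -0.43 to -0.13 for Txnrd1. In shPpargc1b cells the lowest values were -1.02, -0.63, -0.67, -0.53 and -0.59, in the same order of genes. Srxn1 fell by 0.32 in shPpargc1b cells (edgeR adjusted p = 1.48e-04), whereas in shControl cells its log2 fold change was -0.06 (edgeR adjusted p = 0.388; scaled by library totals -0.30, 2.21e-04). Hmox1 did not pass the test in shControl (log2 fold change 0.15, edgeR adjusted p = 0.461) or in shPpargc1b cells (-0.35, 0.0981). Its libraries with and without IFN-β overlapped in both genotypes (exact permutation p = 0.2 and 0.4). In shPpargc1b cells it passed without unstimulated shPpargc1b replicate 2 (-0.51, edgeR adjusted p = 0.0134) and when scaled by library totals (-0.55, 0.00875). With no filter on low counts it passed in both genotypes at nearly the same estimates. These were 0.15 in shControl (edgeR adjusted p = 0.00662) and -0.36 in shPpargc1b cells (1.06e-14).

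Whether IFN-β acted differently in the 2 genotypes was tested by the interaction term. None of the 10 genes passed at an adjusted p of 0.05 in the main edgeR fit, against 0.73% of all genes (0.0603% higher and 0.669% lower). All 10 interaction estimates were below 0, with a median of -0.17, and 5 genes had an unadjusted p under 0.05 (Hmox1, Gclm, Txnrd1, Srxn1 and Sqstm1). Srxn1 gave -0.26 ± 0.075 and Sqstm1 -0.24 ± 0.070 on the log2 scale (edgeR adjusted p = 0.142 for both). DESeq2 called these 2 genes (adjusted p = 0.0415 and 0.0348). The smaller knockdown effects of Sqstm1, Gclm and Txnrd1 with IFN-β, and the larger one of Hmox1, were thus not shown to differ between states by the main edgeR test.

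Over the 4 groups, the 10 genes took several distinct profiles. Likeness was measured as the Euclidean distance between the 4 group means of log2 CPM, each gene centred on its own mean. The closest pairs were Gclc with Slc7a11 (0.17), Gclc with Txnrd1 (0.17), Nqo1 with Slc7a11 (0.18) and Hmox1 with Srxn1 (0.21). Keap1 stood furthest from the rest: Sqstm1 was its nearest (0.46) and Gclm its furthest (1.69). Among 8772 other genes with a mean log2 CPM of at least 3, those nearest to Nfe2l2 were Fhod1, Odc1 and Calu (0.025 to 0.030), those nearest to Hmox1 were Stc2, Pcca and Msi2 (0.092 to 0.13), and those nearest to Sqstm1 were Psmb6, Tgif1 and Cep85l (0.021 to 0.049). These distances rest on 4 group means and describe the shape of the profile only.

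In a list of 35 further NRF2 target genes more rose than fell under knockdown and more fell than rose under IFN-β. Of the 34 with enough counts (Gpx2 had too few), 14 rose and 2 fell under knockdown without IFN-β, which is 41.2% and 5.88% against 12.4% and 11.1% of all genes, with a median of 0.15. With IFN-β 7 rose (20.6%) and 1 fell (2.94%), against 11.5% and 12.7% of all genes, with a median of 0.06. The 2 that fell without IFN-β were Cbr1 and Ephx1, and 1 was called lower without any 1 of unstimulated shControl replicates 1, 2 and 3, unstimulated shPpargc1b replicates 1 and 3, shPpargc1b with IFN-β replicates 1 and 3, and shControl with IFN-β replicate 3. With IFN-β 2 were called lower without shControl with IFN-β replicate 2 and 3 without shPpargc1b with IFN-β replicate 3. Among abundant targets, the peroxiredoxin Prdx1 went from 1920 ± 102 to 2959 ± 112 CPM (mean ± SD, n = 3) in unstimulated cells (log2 fold change 0.62), and Prdx6 from 173 ± 13.3 to 299 ± 6.85 CPM (0.79). With IFN-β Prdx6 rose by 0.54. The aldo-keto reductase Akr1b8 rose by 0.55 and 0.50, from 8.37 ± 0.904 to 12.2 ± 1.18 CPM and from 5.16 ± 0.597 to 7.33 ± 1.16 CPM. Ephx1, microsomal epoxide hydrolase, fell by 0.40 and 0.52, from 45.1 ± 1.55 to 34.2 ± 3.99 CPM and from 35.1 ± 2.58 to 24.6 ± 1.55 CPM.

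The largest log2 fold changes of that list were of genes with few reads. Gsta4, a glutathione transferase, held 4 to 14 counts in unstimulated shControl and 34 to 45 in unstimulated shPpargc1b libraries (log2 fold change 2.04), and 0 to 4 and 7 to 20 with IFN-β (2.61). Aldh3a1, an aldehyde dehydrogenase, held 10 to 16 and 37 to 52 counts (1.56), and 9 to 17 and 22 to 32 with IFN-β (1.16). With IFN-β the call of Gsta4 was lost without shControl with IFN-β replicate 2 (edgeR adjusted p = 0.0564) or 3 (0.0713) or shPpargc1b with IFN-β replicate 3 (0.0820). That of Aldh3a1 was lost without shControl with IFN-β replicate 1 (edgeR adjusted p = 0.0648) or 3 (0.141) or shPpargc1b with IFN-β replicate 1 (0.119). That of Akr1b8 was lost without shControl with IFN-β replicate 1 (edgeR adjusted p = 0.0502) or shPpargc1b with IFN-β replicate 2 (0.0505). IFN-β itself raised 6 of the 34 and lowered 16 in shControl cells (17.6% and 47.1%, median -0.15), against 23.7% and 24.6% of all genes. In shPpargc1b cells it raised 3 and lowered 17 (8.82% and 50%, median -0.23), against 21.4% and 21.2% of all genes. Scaled by library totals, it raised 2 and lowered 24 in shControl, and raised 1 and lowered 25 in shPpargc1b cells. Osgin1 fell by 0.84 and Akr1b8 by 0.69 in shControl cells. Gsta4 fell by 2.0, a call lost without unstimulated shControl replicate 1 (edgeR adjusted p = 0.181) or 2 (0.0579), shControl with IFN-β replicate 2 (0.139) or 3 (0.133), or unstimulated shPpargc1b replicate 3 (0.0502).

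**Figure D4:**
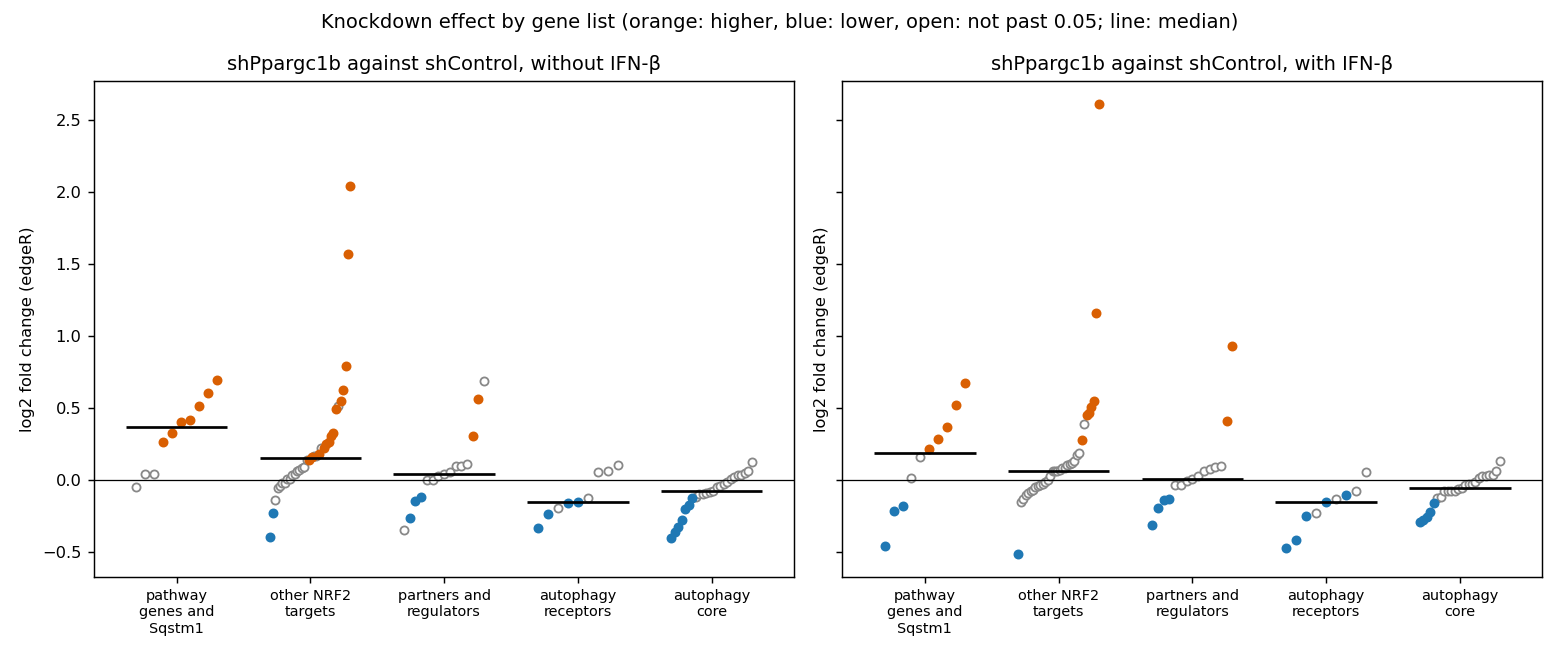
Log2 fold changes (edgeR) of shPpargc1b against shControl, without IFN-β on the left and with it on the right, for the 10 genes and for 4 further lists; each point is a gene, orange points rose and blue points fell at an adjusted p of 0.05, open points did not pass, and the line is the list's median. The medians of the 10 genes, 0.36 and 0.19, and of the other NRF2 targets, 0.15 and 0.06, lie above 0, and those of the autophagy receptors, -0.16 and -0.16, and of the autophagy core, -0.08 and -0.06, lie below it.

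The 15 partners and regulators of NRF2 moved in both directions. Without IFN-β 2 rose (Maff and Mafk) and 3 fell (Bach1, Ep300 and Gsk3b) under knockdown, and with IFN-β 2 rose (Maff and Nfe2l3) and 4 fell (Bach1, Ep300, Gsk3b and Mafk). These are 13.3% higher and 20% lower without IFN-β, against 12.4% and 11.1% of all genes, and 13.3% and 26.7% with it, against 11.5% and 12.7%. With no filter on low counts, 1 was called lower in each state. Without unstimulated shPpargc1b replicate 1, 4 rose in unstimulated cells. Bach1, a repressor that competes with NRF2 for the same elements, fell from 143 ± 3.77 to 119 ± 4.88 CPM in unstimulated cells, by 0.26 on the log2 scale. With IFN-β it fell by 0.31, from 152 ± 5.02 to 122 ± 5.97 CPM (mean ± SD, n = 3). Maff and Mafk encode small MAF proteins, with which both NRF2 and BACH1 bind DNA. In unstimulated cells Maff rose from 13.9 ± 0.702 to 20.5 ± 0.930 CPM (log2 fold change 0.56). With IFN-β it rose by 0.41, from 10.9 ± 0.691 to 14.4 ± 2.85 CPM, a call lost without shControl with IFN-β replicate 2 (edgeR adjusted p = 0.0694) or shPpargc1b with IFN-β replicate 2 (0.0808). Nfe2l3, a relative of NRF2, rose by 0.93 with IFN-β, where it held 38 to 59 counts in shControl and 74 to 99 in shPpargc1b libraries, a call lost without shPpargc1b with IFN-β replicate 1 (edgeR adjusted p = 0.0596).

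Mafk was the 1 gene of these lists with a called interaction in the main edgeR fit. With no filter on low counts edgeR also called 2 of the further NRF2 targets lower, Prdx6 among them (-0.25, edgeR adjusted p = 0.0238). DESeq2 also called the autophagy receptor Tax1bp1 (-0.17, DESeq2 adjusted p = 0.0487). For Mafk, unstimulated shControl cells gave 14.0 ± 0.0592 CPM and knockdown cells 17.3 ± 1.17 CPM. With IFN-β they gave 41.3 ± 1.53 and 36.0 ± 2.36 CPM (mean ± SD, n = 3). The knockdown effect was 0.30 on the log2 scale without IFN-β (edgeR adjusted p = 0.00235) and -0.20 with it (edgeR adjusted p = 0.0240), and the IFN-β effect 1.56 in shControl and 1.06 in shPpargc1b cells. The interaction was -0.50 ± 0.087 (edgeR adjusted p = 0.0158). The interaction was lost without unstimulated shControl replicate 1 (edgeR adjusted p = 0.0511) or 3 (0.0638) or unstimulated shPpargc1b replicate 3 (0.0560). The fall with IFN-β was lost without shPpargc1b with IFN-β replicate 1 (edgeR adjusted p = 0.0768), unstimulated shControl replicate 2 (0.0517) or shControl with IFN-β replicate 2 (0.0680). Of the 15 genes, 6 rose and 2 fell with IFN-β in shControl cells (40% and 13.3%), against 23.7% and 24.6% of all genes. In shPpargc1b cells 4 rose and 2 fell (26.7% and 13.3%), against 21.4% and 21.2% of all genes. Scaled by library totals, 2 rose and 9 fell in shControl, and 2 rose and 8 fell in shPpargc1b cells. Without shControl with IFN-β replicate 2, 1 fell in shControl cells. Bach2 fell by 1.54 (119 to 163 counts without and 36 to 57 with IFN-β) and Nfe2l1, another relative of NRF2, rose by 0.35 in shControl cells.

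No autophagy receptor other than p62 rose under knockdown by DESeq2 or by edgeR without a block, whereas edgeR with runs of library codes as a block called 1 higher in unstimulated cells. Of 9, 0 rose and 4 fell (44.4%) without IFN-β and 0 rose and 5 fell (55.6%) with it, against 11.1% and 12.7% of all genes lower, and the medians were -0.16 in both states. At an unadjusted p under 0.05, 1 and 0 were higher, and DESeq2 gave 0 higher in either state. Ncoa4, which delivers ferritin to autophagosomes, fell from 117 ± 1.67 to 92.3 ± 1.09 CPM in unstimulated cells (log2 fold change -0.34) and, with IFN-β, from 181 ± 10.3 to 130 ± 1.70 CPM (-0.47; mean ± SD, n = 3). Bnip3, a mitophagy receptor, fell by 0.42 with IFN-β, from 358 ± 8.35 to 268 ± 50.3 CPM. Without IFN-β only 1 receptor was called lower without unstimulated shControl replicate 2 or unstimulated shPpargc1b replicate 3. With IFN-β 3 were called lower without unstimulated shControl replicate 1 or 2, unstimulated shPpargc1b replicate 2, or shControl with IFN-β replicate 2 or 3. Under IFN-β, by contrast, 4 receptors rose (44.4%) along with p62 in each genotype and 2 fell (22.2%). Of all genes 23.7% rose and 24.6% fell in shControl cells, and 21.4% and 21.2% in shPpargc1b cells. Scaled by library totals, 3 receptors rose and 4 fell in shControl, and 4 rose and 5 fell in shPpargc1b cells. The number that fell in shControl cells was 1 without any 1 of unstimulated shControl replicates 1 and 2, shControl with IFN-β replicates 1, 2 and 3, and shPpargc1b with IFN-β replicate 3, and in shPpargc1b cells it was 1 without unstimulated shPpargc1b replicate 1 or shPpargc1b with IFN-β replicate 1 or 3. In shControl cells Optn rose by 1.48 (7.04 ± 0.503 to 19.6 ± 1.87 CPM), Tax1bp1 by 0.68 (181 ± 1.87 to 290 ± 10.1 CPM) and Ncoa4 by 0.63.

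Of 24 core autophagy genes, 0 rose and 7 fell (29.2%) under knockdown without IFN-β, against 12.4% higher and 11.1% lower of all genes. With IFN-β 0 rose and 5 fell (20.8%), against 11.5% and 12.7% of all genes. The medians were -0.08 and -0.06. At an unadjusted p under 0.05, 1 was higher in each state, and DESeq2 called 0 higher. Without unstimulated shPpargc1b replicate 3, edgeR called 1 higher in unstimulated cells, and without unstimulated shPpargc1b replicate 1 or 2 it called 1 higher with IFN-β. With runs of library codes as a block, it called 1 higher in each state. Without IFN-β Wipi1, which binds the forming autophagosome membrane, fell by 0.41 (31.0 ± 2.12 to 23.4 ± 2.72 CPM), Tfeb, a transcription factor of lysosome and autophagy genes, by 0.37 (24.2 ± 1.27 to 18.8 ± 0.356 CPM) and the initiating kinase Ulk1 by 0.33 (36.5 ± 2.22 to 29.2 ± 3.11 CPM). With IFN-β the number called lower was 2 without shControl with IFN-β replicate 3 or shPpargc1b with IFN-β replicate 3, and 3 without any 1 of unstimulated shControl replicates 1, 2 and 3, unstimulated shPpargc1b replicates 2 and 3, and shPpargc1b with IFN-β replicate 1. IFN-β raised 5 and lowered 5 of the 24 in each genotype (20.8% each way), at or below the shares of all genes in shControl (23.7% and 24.6%) and shPpargc1b cells (21.4% and 21.2%), but scaled by library totals it raised 1 and lowered 18 in shControl and raised 1 and lowered 15 in shPpargc1b cells. Those raised in shControl cells numbered 3 without any 1 of unstimulated shControl replicates 2 and 3 and unstimulated shPpargc1b replicates 1, 2 and 3, and those lowered in shPpargc1b cells numbered 3 without unstimulated shPpargc1b replicate 1 or 2 or shPpargc1b with IFN-β replicate 3. Atg13, a subunit of the initiating kinase complex, rose by 0.60, and Ulk2 and Atg7 fell by 0.51 and 0.44 in shControl cells.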

How the data were processed

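RNA was sequenced from 12 libraries in 4 groups of 3, as total RNA depleted of ribosomal RNA. The authors trimmed reads (Trim Galore 0.6.0 in the submitters' processing notes), aligned them with STAR (2.7.8a in those notes) to the mm10 build with a GENCODE annotation, and deposited 1 table of raw read counts per gene, with no normalization; the strand setting was not given in the sources used here. From the deposited counts, edgeR 4.0.16 in R 4.3.3 kept 18228 of 55471 genes (filterByExpr, minimum count 10, minimum total 15; 99.96% of counts), scaled by TMM and fitted a mean per group to all 12 libraries. Quasi-likelihood tests were adjusted by Benjamini-Hochberg across the genes kept and called at 0.05. Alternatives were library totals, no filter, DESeq2 1.42.0 size factors and its Wald test, only the libraries compared, a block for runs of library codes, and leaving out each library. The script was tested on simulated data. Replicate numbers follow accession order and were not used to pair libraries.

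The 10 genes and the lists were chosen with earlier results of these data known. Named from each list were genes past 0.05 under knockdown whose log2 fold change was 0.3 or more in size (at most the 5 largest per comparison) and the 3 with the largest change under IFN-β in shControl cells; Bach1 without IFN-β, Mafk with it, Cbr1, Ep300 and Gsk3b were named after their values were seen. Gene positions and exon lengths come from GENCODE M21 on GRCm38, not the authors' release. Totals of 49919648 to 77726101 counts set the precision; a change of the low-count genes is the least certain.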

Additional observations from a re-analysis of the deposited data

How the results depend on the processing

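The interaction was the comparison most open to processing: 133 genes were called, against 84 with library totals, 525 with no filter, 449 by DESeq2, 425 with runs of library codes as a block and 36 to 271 when 1 library was left out (36 without unstimulated shControl replicate 3, 271 without shPpargc1b with IFN-β replicate 2). Of the 10 genes, 0 were called there, against 4 with no filter, 2 by DESeq2 and 1 (Srxn1) with the block. Leaving out 1 library gave 7 to 7, 6 to 8, 6 to 7, 8 to 9 and 0 to 0 of the 10 genes in the 5 comparisons in the order of the report, and 3332 to 4466, 3375 to 4466, 7867 to 8946 and 6823 to 7698 of all genes in the first 4. Over 890 alternative values of the 10 genes, 860 stayed on their side of the threshold, 14 lost a call, 16 gained one and 0 called values changed sign. The IFN-β effect on Bach1 was not called in shControl (0.09, edgeR adjusted p = 0.133) or shPpargc1b cells (0.04, 0.540). Under library totals it was called lower, at -0.15 (edgeR adjusted p = 0.0110) and -0.16 (0.00839), and the cause was not tested. The knockdown effect on Bach1 kept its call in all 18 alternatives in each state. Libraries of 1 run of codes, 1 per group, deviated together in 15 of 18 pairs (median correlation 0.28), but nothing says what a run shares, so it was not treated as a pairing; the block raised the calls to 5041 and 5180 genes for the knockdown without and with IFN-β. Low counts limit Gsta4, Aldh3a1 and Nfe2l3.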
